A study of Danio rerio with 28 samples.

Results

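Genes of fatty acid use and lipid handling were followed through 7 groups of whole zebrafish larvae. They were all genes of the deposited count table whose symbol begins with acad, acox, acsl, acaa, cpt1, cpt2, hadh, elovl, fads2, fabp, ppara, pparg, ppard, pdk1 to pdk4, plin or lpin, which gave 71 of 38318 genes. The spelling also takes in ppargc1a and ppargc1b, which encode co-activators of the receptors and are kept apart here as the ppargc1 group. Of the 71, 66 had enough counts to be tested. The other 5 were fabp1a with 0 counts over all libraries, plin1 with 26, plin2 with 32, fabp11b with 56 and fabp1b.2 with 89.

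The larvae were wild type, of the AB strain, kept in E3 medium at 28.5 °C and exposed from 1 to 5 days after fertilization. Cadmium (Cd, a toxic metal) was given at 2.4, 12 or 24 ug/L. PCB126, a dioxin-like polychlorinated biphenyl that activates the aryl hydrocarbon receptor, was given at 0.08, 0.4 or 0.8 nM. A control group was shared by both chemicals, and each of the 7 groups had 4 libraries of polyadenylated RNA. The labels name no vehicle, give the control columns the Cd prefix and are silent on whether replicate libraries came from separate clutches, so the p-values speak only of the spread among these libraries. Any difference in vehicle or handling between the control and PCB126 libraries therefore cannot be told apart from an effect of PCB126.

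Fatty acids are burned in mitochondria after an acyl-CoA synthetase (acsl) has activated them and carnitine palmitoyltransferases (cpt) have enabled their entry. The acyl-CoA dehydrogenases (acad), hydroxyacyl-CoA dehydrogenases (hadh) and thiolases (acaa) then shorten the chain, and pyruvate dehydrogenase kinases (pdk) hold back glucose use by switching off the pyruvate dehydrogenase complex. Elongases (elovl) and the desaturase fads2 build long chain fatty acids, fatty acid binding proteins (fabp) carry them in the cytosol, and lipins (lpin) and perilipins (plin) serve triglyceride synthesis and lipid droplets. The peroxisome proliferator-activated receptors (ppar) are nuclear receptors that fatty acids bind and that control many of these genes. Zebrafish larvae live on yolk lipid through most of the exposure period.

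Libraries held 11893345 to 20770004 counts, of which the 71 genes took 0.338% to 0.394%. A pair of libraries, control replicate 4 and replicate 3 of Cd 2.4 ug/L, diverged from the remaining 26. Their scaling factors (TMM) were 0.646 and 0.687, against 0.993 to 1.08 in the others, and ribosomal protein genes took 12.6% and 13.0% of their counts, against 5.86% to 6.85%. Calls and fold changes are therefore given with all 28 libraries, and values without this pair stand beside most of them. Markers of liver, gut, skeletal muscle, heart, yolk lipoprotein export and radial glia were all detected, which fits the label of whole larvae.

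Levels per gene length, as the deposited TPM values (counts divided by gene length and scaled to a fixed total per library), spread over more than 3 orders of magnitude within these families. Cytosolic carriers dominated: the fabp genes together held 4410 ± 727 TPM (SD over 28 libraries), and fabp10a, the liver carrier, alone averaged 1674 ± 342 TPM. The intestinal and liver carrier fabp1b.1 followed at 971 ± 240 TPM, the muscle and heart carrier fabp3 at 607 ± 41.0 TPM and the radial glial carrier fabp7a at 544 ± 80.4 TPM. Among the enzymes, the medium chain dehydrogenase acadm averaged 190.0 ± 12.4 TPM, the kinase pdk2b 137 ± 52.7 TPM and the very long chain dehydrogenase acadvl 121 ± 21.0 TPM. The receptors were lower, from 3.99 TPM for pparab to 18.3 TPM for pparg, and plin6 averaged 7.56 ± 2.60 TPM.

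**Figure D1:**
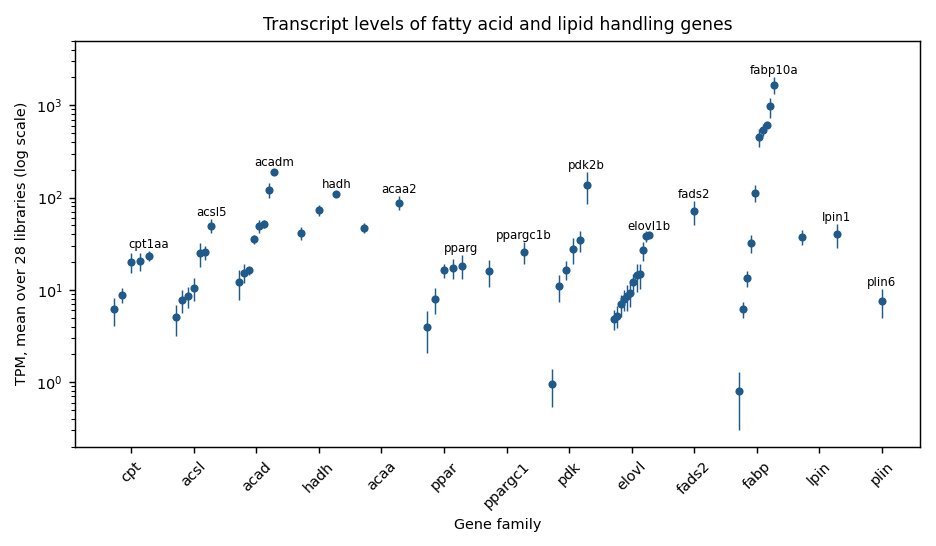
Mean TPM over 28 libraries (vertical axis, log scale) of 64 members present in the TPM table, by family (horizontal axis). Points are genes, bars are the SD over 28 libraries with the divergent pair included, and the highest member of each family is named. The highest of all is fabp10a at 1674 TPM.

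Counts of members that changed were small with all 28 libraries. A gene was called when the Benjamini-Hochberg adjusted p of edgeR's quasi-likelihood test, taken over all genes tested, was below 0.05. At PCB126 0.8 nM 8 of 66 members were called against control, 4 higher and 4 lower, where 3.49% of all genes tested were called (2.02% higher and 1.47% lower). The 8 are 12.1% of the members. At PCB126 0.4 nM 2 members were called, both lower (all genes 1%), and at 0.08 nM 2, both lower (all genes 0.386%). At Cd 24 ug/L 2 members were called, both higher (all genes 0.922%, with 0.744% higher and 0.177% lower), at Cd 12 ug/L 1, higher (all genes 0.173%), and at Cd 2.4 ug/L none (all genes 0.0394%). In that last comparison DESeq2 called 0 members. There 4 members had an unadjusted p under 0.05 in edgeR, and the share of all genes at that limit was not counted. The linear dose trend was called for 5 members rising and 2 falling with PCB126 (all genes 2.27%) and for 2 rising with Cd (all genes 0.344%). PCB126 0.8 nM against 0.08 nM gave 1 member higher (all genes 1.02%). Across the 10 comparisons 13 members were called. The share of all genes called in at least 1 of them was not computed, so this count has no background beside it. The background holds genes of every level and was not matched to the members. In a model of only the 2 groups compared, of the calls against control those of elovl6l at PCB126 0.8 nM and pdk2b at Cd 24 ug/L were kept (edgeR, adjusted p = 0.0427 and 0.0336), and every other one was lost (adjusted p from 0.0831 to 0.846).

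Without the divergent pair, 40 members were called in at least 1 of the 10 comparisons. The share of all genes called in at least 1 was not computed, and in single comparisons it rose to 11%. The counts became 11 higher and 6 lower at PCB126 0.8 nM (all genes 8.73%, with 5.37% higher and 3.37% lower), 6 and 2 at 0.4 nM (3.57%) and 5 and 6 at 0.08 nM (7.83%). They became 11 higher and 0 lower at Cd 24 ug/L (all genes 5.08%, with 3.63% higher and 1.45% lower), 5 and 0 at Cd 12 ug/L (0.797%) and 0 and 0 at Cd 2.4 ug/L (0.133%). At Cd 2.4 ug/L 13 members had an unadjusted p under 0.05 in edgeR. The share of all genes at that limit was not counted, and the 0.133% is for adjusted p. The dose trends gave 10 higher and 4 lower for PCB126 (6.28%) and 10 and 1 for Cd (5.29%). For PCB126 0.8 nM against 0.08 nM they were 15 higher and 6 lower (all genes 11%). The median log2 fold change of the members at PCB126 0.8 nM was 0.02 with 28 libraries and 0.10 with 26, against -0.01 over all genes in both fits. At Cd 24 ug/L it was 0.09 and 0.12, against -0.02 and 0.00 over all genes. Set against control replicates 1 to 3, yolk export and enterocyte marker lists were higher at Cd 24 ug/L, and the hepatocyte list was not. Over all 4 controls the yolk list averaged 5042 CPM and the enterocyte list 1575, against 5802 and 1587 at Cd 24 ug/L. Yolk and lipoprotein export genes summed to 5415 to 6110 CPM there, against 4189 to 4341 CPM in control replicates 1 to 3 and 7364 in control replicate 4, with 1 of 7 called higher with 28 libraries and 3 without the pair. Enterocyte markers summed to 1495 to 1649 CPM, against 1290 to 1322 in control replicates 1 to 3 and 2371 in control replicate 4, with 1 of 9 called higher and 4 without the pair. Hepatocyte markers summed to 9171 to 9658 CPM, against 9407 to 10232 in control replicates 1 to 3 and 23168 in control replicate 4. Of 15 tested, 0 were called with 28 libraries, and 1 was higher and 2 lower without the pair. At PCB126 0.8 nM the yolk and lipoprotein list also summed higher than in control replicates 1 to 3, at 4959 to 5795 CPM. There 0 of 7 were called with 28 libraries and 4 were higher without the pair. Enterocyte markers summed to 1311 to 1618 CPM at that dose. At PCB126 0.4 nM the yolk list summed to 4616 to 5537 CPM and the enterocyte list to 1495 to 1620. At Cd 12 ug/L these sums were 4731 to 5660 and 1432 to 1515 CPM. The part of these lists in the counts of members was not tested.

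**Figure D2:**
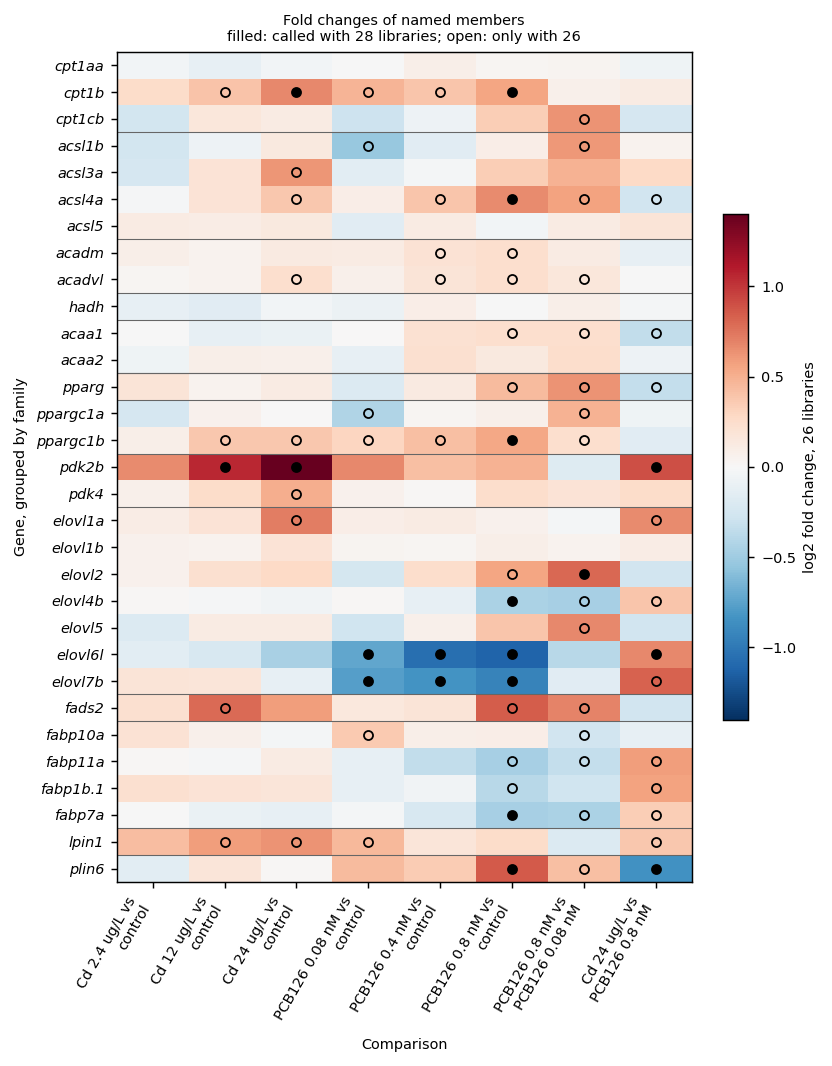
Log2 fold change (colour, 26 libraries) of 31 named members (rows, grouped by family) in 8 comparisons (columns). Filled circles mark calls with all 28 libraries and open circles calls made only without the divergent pair; elovl6l and elovl7b are low in the 3 comparisons of PCB126 with control, and pdk2b is highest at Cd 24 ug/L.

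The light-responsive clock gene per2 was higher in every exposed group than in the controls. It averaged 26.6 ± 1.67 CPM in controls and 82.4 ± 21.4, 139 ± 14.9 and 188 ± 7.71 CPM at Cd 2.4, 12 and 24 ug/L. At PCB126 the means were 215 ± 8.72, 262 ± 3.90 and 296 ± 12.1 CPM at 0.08, 0.4 and 0.8 nM (SD, n = 4 each). CPM are counts scaled to library size with the TMM factor. The call was made in all 6 comparisons with control. Of 18 light and clock genes tested, 5 were called higher at PCB126 0.8 nM and 2 at Cd 24 ug/L, none was called lower at either. Without the pair these became 6 higher and 2 lower at PCB126 0.8 nM and 4 higher and 0 lower at Cd 24 ug/L. Of all genes 2.02% and 0.744% were called higher at these doses with 28 libraries. Without the pair 5.37% and 3.63% were higher, and 3.37% and 1.45% lower. The labels state no clock time, so the part of collection time or light in the results below was not tested. In whole larvae, fewer cells of a type and less RNA per cell cannot be told apart.

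Among the carnitine palmitoyltransferases, cpt1b, the muscle form that admits long chain acyl groups to mitochondria (ENSDARG00000058285, chromosome 18, 8340886 to 8367566, GRCz11), was higher at the top dose of both chemicals. Its control libraries had 25.9, 28.2, 25.8 and 35.0 CPM, and the Cd libraries had 29.6, 29.8, 27.7 and 36.3 CPM at 2.4 ug/L, 33.8, 39.2, 34.8 and 32.4 at 12 ug/L and 39.9, 48.5, 43.1 and 37.8 at 24 ug/L. At Cd 24 ug/L all 4 libraries lay above all 4 controls, while the 2.4 and 12 ug/L libraries overlapped them, those at 12 ug/L only through control replicate 4, the highest control. The fold change at Cd 24 ug/L was 0.56 ± 0.11 on the log2 scale (SE; edgeR, adjusted p = 0.00858), or 0.67 ± 0.10 without the pair. Leaving out Cd 24 ug/L replicate 2 ended the call (adjusted p = 0.0654). PCB126 gave 37.1, 37.2, 32.5 and 41.2 CPM at 0.08 nM, 33.1, 36.2, 38.8 and 31.1 at 0.4 nM and 39.4, 38.8, 36.0 and 41.9 at 0.8 nM. At 0.8 nM no library overlapped the controls, and the fold change was 0.45 ± 0.11 (edgeR, adjusted p = 0.0214), or 0.55 ± 0.10 without the pair.

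The call of cpt1b at PCB126 0.8 nM ended without control replicate 1 or 3 or PCB126 0.8 nM replicate 1, 2 or 4 (highest adjusted p = 0.0768). Without the pair cpt1b was called at all 3 PCB126 doses and at Cd 12 and 24 ug/L. Its Cd dose trend, 0.02 per ug/L (edgeR, adjusted p = 0.0412), was kept in 3 of 16 omissions of a single library, those of control replicate 4 and Cd 2.4 ug/L replicates 3 and 4. The skeletal muscle markers had no called member among 15 tested at Cd 24 ug/L, where their summed level was 69234 to 76241 CPM, against 64826 to 67245 CPM in control replicates 1 to 3 and 151816 in control replicate 4. Without the pair 2 of them were higher (all genes 3.63%). At PCB126 0.8 nM 1 skeletal muscle marker, acta1b, and 3 of 6 heart markers were called lower (all genes 1.47%). The heart list summed to 50.7 to 62.2 CPM there, against 74.3 to 79.0 in control replicates 1 to 3 and 166 in control replicate 4. The part of muscle or heart RNA in the cpt1b result was not tested. An overlapping gene on the same strand, BX276107.1, held counts equal to 6.52% of those of cpt1b. The other members of the family, the liver forms cpt1aa and cpt1ab, the inner membrane enzyme cpt2 and cpt1cb, were not called with 28 libraries. The last, cpt1cb, averaged 10.9 ± 0.78 CPM at PCB126 0.8 nM against 7.04 ± 1.01 at 0.08 nM, and this was called only without the pair (edgeR, adjusted p = 0.00161).

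The acyl-CoA synthetase acsl4a, whose mammalian counterpart prefers arachidonic acid (ENSDARG00000004078, chromosome 14, 28438947 to 28459446), rose with PCB126 dose. The controls had 38.5, 38.9, 38.5 and 15.2 CPM, and PCB126 gave 41.5, 42.7, 38.9 and 41.2 CPM at 0.08 nM, 52.1, 49.0, 48.5 and 52.7 at 0.4 nM and 56.1, 66.7, 58.0 and 62.8 at 0.8 nM. Only control replicate 4 was far below its group, and the 0.4 and 0.8 nM libraries all lay above the controls. The fold change at 0.8 nM was 0.89 ± 0.20 (edgeR, adjusted p = 0.00867), kept in all 8 omissions of a single library but lost with only the groups compared (adjusted p = 0.33), and 0.66 ± 0.06 without the pair. The slope was 1.00 ± 0.22 per nM (edgeR, adjusted p = 0.0226), a call lost when replicate 2 or 4 of PCB126 0.8 nM was left out (adjusted p up to 0.0791). At Cd the values were 35.9, 37.2, 20 and 41.7 CPM at 2.4 ug/L, 41.8, 43.9, 46.7 and 43.1 at 12 ug/L and 47.4, 50.4, 49.7 and 53.4 at 24 ug/L, with the low value again in the divergent replicate 3. The Cd 24 ug/L change, 0.61 ± 0.20, was not called with 28 libraries (edgeR, adjusted p = 0.167) and was 0.38 ± 0.06 without the pair (adjusted p = 0.000461). The gene nxt2, which overlaps acsl4a on the other strand, held 4.44% as many counts.

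Of the other 6 acsl members none was called with all 28 libraries. Without the pair, acsl3a rose at Cd 24 ug/L by 0.62 ± 0.18 (edgeR, adjusted p = 0.0417), and acsl1b was lower at PCB126 0.08 nM, at 27.7 ± 1.13 CPM (n = 4) against 40.1 ± 1.09 CPM in control replicates 1 to 3. The most abundant synthetase per length, acsl5 at 49.5 ± 8.57 TPM, was not called in any of the 10 comparisons, and its counts may include reads of zdhhc6, an overlapping gene on the other strand with 26% as many counts.

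In the oxidation spiral, acadvl, which takes the longest chains first, moved little and with little spread. It averaged 224 ± 4.44 CPM at PCB126 0.8 nM and 223 ± 3.37 CPM at Cd 24 ug/L, against 193 ± 5.87 CPM in controls (SD, n = 4 each), and neither exposed group overlapped the controls. With 28 libraries the PCB126 dose trend was called, 0.27 ± 0.07 per nM (edgeR, adjusted p = 0.0497), but the call ended on leaving out any of the 16 libraries except control replicate 4 (highest adjusted p = 0.121). Without the pair, acadvl was called at PCB126 0.4 and 0.8 nM and at Cd 24 ug/L, by 0.18, 0.23 and 0.23 on the log2 scale. The medium chain enzyme acadm had 197 ± 8.87 CPM at PCB126 0.8 nM, against 167 ± 6.91 in control replicates 1 to 3 and 360.0 in control replicate 4. It was called higher at 0.4 and 0.8 nM without the pair only, by 0.20 and 0.24.

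The remaining acad members, acad8, acad9, acad11, acadl, acads and acadsb, were not called with 28 libraries. Without the pair, acad8, which acts on a valine breakdown product, rose at PCB126 0.08 nM (0.37 ± 0.11), the short chain enzyme acads at 0.4 nM (0.35 ± 0.07) and acadsb, which acts on short branched chains, at Cd 24 ug/L (0.28 ± 0.06). A gene overlapping acadsb on the same strand, FO704624.1, held counts equal to 7.15% of those of acadsb.

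The hydroxyacyl-CoA dehydrogenases and thiolases had no call with 28 libraries. The hadh transcript averaged 76.6 ± 9.71 CPM at PCB126 0.8 nM and 75.0 ± 4.39 at Cd 24 ug/L, against 77.0 ± 1.4 CPM in control replicates 1 to 3. Counts of hadhaa, the trifunctional protein alpha subunit, cannot be parted with certainty from those of HADHB, the beta subunit gene on the other strand, which held 259% as many. The peroxisomal thiolase acaa1 was called without the pair only: it had 44.2 ± 5.89 CPM at PCB126 0.8 nM, against 37.3 ± 2.77 in control replicates 1 to 3, and these ranges overlapped.

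The peroxisomal acyl-CoA oxidase genes acox3 and acoxl were not called in any of the 10 comparisons in either fit.

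Of the 5 receptor genes, pparg, best known in mammals as the receptor of fat cell formation, was the sole one called with 28 libraries. It averaged 11.3 ± 3.29 CPM in controls and 11.3 ± 0.32, 14.1 ± 0.96 and 17.6 ± 0.82 CPM at PCB126 0.08, 0.4 and 0.8 nM (SD, n = 4 each). The controls were 13.5, 13.8 and 11.5 CPM in replicates 1 to 3 and 6.66 in replicate 4, and the 0.08 nM libraries ran from 10.8 to 11.5. All 4 libraries at 0.8 nM, from 16.6 to 18.6 CPM, lay above all controls. Even so, pparg was not called at 0.8 nM against control with 28 libraries, and its call there was that of the dose slope. The slope was 0.82 ± 0.18 per nM (edgeR, adjusted p = 0.0164), a call lost when replicate 2 or 4 of PCB126 0.8 nM was left out (adjusted p up to 0.0554), and 0.69 ± 0.11 without the pair. At Cd 24 ug/L it averaged 14.0 ± 1.58 CPM. Without the pair, pparab and pparda were called higher at PCB126 0.8 nM against 0.08 nM, by 0.96 ± 0.29 and 0.47 ± 0.15, with pparg at 0.63 ± 0.09. A gene overlapping pparda on the same strand, FP067424.1, held counts equal to 13.9% of those of pparda. The fatty acid receptors pparaa and ppardb were not called in either fit.

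The co-activator gene ppargc1b, whose product drives genes of mitochondrial metabolism, was higher at PCB126 0.8 nM, at 107 ± 9.36 CPM against 64.1 ± 20 CPM in controls (SD, n = 4 each). The controls held 74.0 ± 3.05 CPM in replicates 1 to 3 and 34.3 in replicate 4, and no exposed library, from 98.2 to 120.0 CPM, overlapped them. The fold change was 0.74 ± 0.17 (edgeR, adjusted p = 0.00947), kept in all 8 omissions but lost with only the groups compared (adjusted p = 0.352), and 0.54 ± 0.07 without the pair. Without the pair it was also called at PCB126 0.08 and 0.4 nM and at Cd 12 and 24 ug/L, by 0.30, 0.42, 0.38 and 0.38. Its relative ppargc1a was not called with 28 libraries. At PCB126 0.08 nM it was lower without the pair, with a log2 fold change of -0.42 ± 0.13 (edgeR, adjusted p = 0.0458).

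The kinase gene pdk2b (ENSDARG00000059054, chromosome 19, 5674907 to 5687743) showed the largest called change with Cd among the 66. The control libraries had 102, 90.3, 82.4 and 109 CPM, and Cd gave 80.8, 144, 142 and 210 CPM at 2.4 ug/L, 212, 206, 147 and 189 at 12 ug/L and 238, 275, 177 and 267 at 24 ug/L. Every library at 12 and 24 ug/L was above every control, while the 2.4 ug/L libraries ran from below the lowest control to nearly the highest value at 12 ug/L. At Cd 24 ug/L the level was 2.5-fold that of controls, a log2 fold change of 1.32 ± 0.21 (edgeR, adjusted p = 0.000742), kept in all 8 omissions. Without the pair it was 1.39 ± 0.22.

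At Cd 12 ug/L the pdk2b change of 0.98 ± 0.21 (1.05 ± 0.22 without the pair) was called (edgeR, adjusted p = 0.0473), and the call ended without control replicate 1, 2 or 3 or Cd 12 ug/L replicate 1, 2 or 4 (highest adjusted p = 0.199). The slope over Cd dose, 0.05 ± 0.01 per ug/L (edgeR, adjusted p = 0.0405), was kept in 2 of 16 omissions, those of Cd 2.4 ug/L replicates 3 and 4, with a highest adjusted p of 0.153. PCB126 gave 151, 125, 176 and 130 CPM at 0.08 nM, 107, 138, 142 and 102 at 0.4 nM and 147, 149, 107 and 113 at 0.8 nM. All 4 libraries at 0.08 nM lay above all controls, while those at 0.4 and 0.8 nM overlapped them. No PCB126 dose was called against control (at 0.08 nM 0.60 ± 0.20, edgeR, adjusted p = 0.319), and the 3 doses overlapped each other.

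The other pdk genes were not called with all 28 libraries. The paralogue pdk2a was 0.68 ± 0.17 higher at Cd 24 ug/L (edgeR, adjusted p = 0.0622) with no overlap between the groups, and 0.52 ± 0.14 without the pair (adjusted p = 0.0255). The starvation-induced kinase pdk4 averaged 44.0 ± 4.90 CPM at Cd 24 ug/L against 31.0 ± 0.91 in control replicates 1 to 3 and 3.56 in control replicate 4. It was called without the pair, by 0.51 ± 0.10 (edgeR, adjusted p = 0.00246). Without the pair 3 of the 6 pdk genes were called higher at Cd 24 ug/L and none lower (all genes 3.63% and 1.45%), and at PCB126 0.8 nM none was called. In the direct comparison of the top doses pdk2b was the sole pdk gene called, in both fits.

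**Figure D3:**
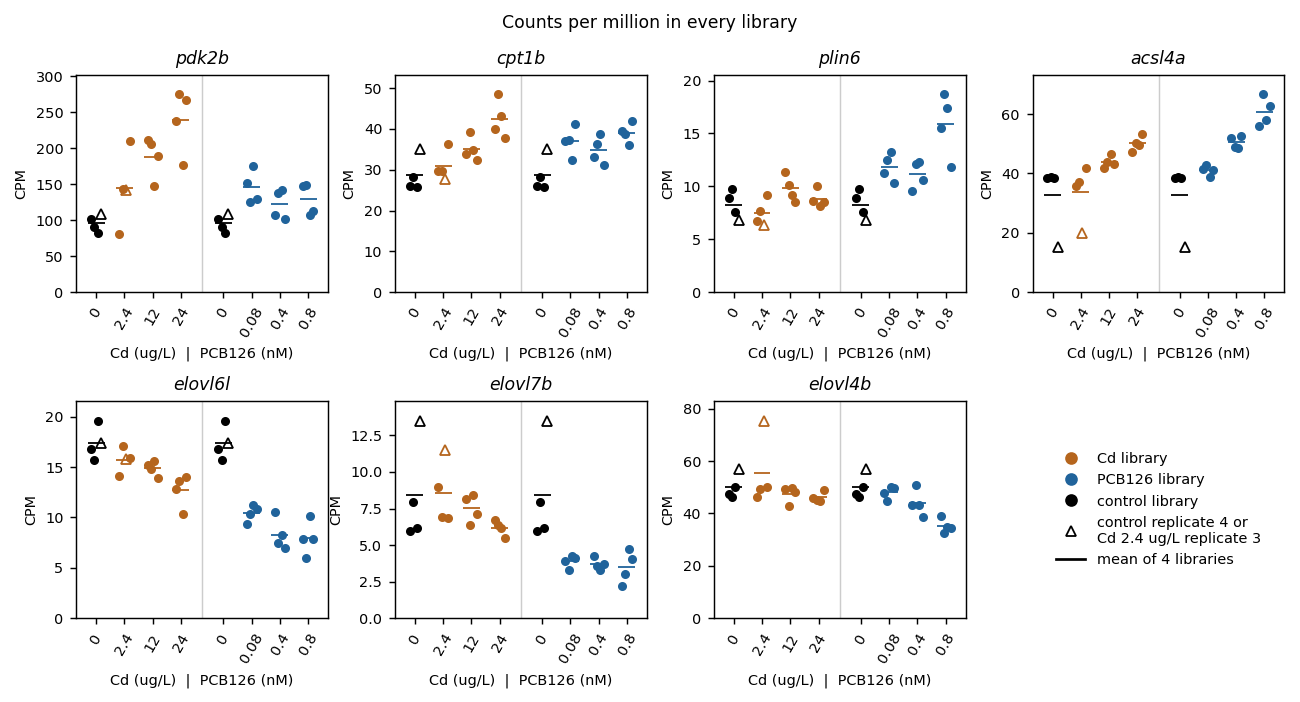
CPM in every library (vertical axes from 0) of the 7 genes whose values are given in full, by dose of Cd (ug/L) and PCB126 (nM), with the same 4 controls at dose 0 of each series. Lines are means of 4 libraries and triangles are control replicate 4 and Cd 2.4 ug/L replicate 3; acsl4a is lowest in control replicate 4, at 15.2 CPM, and elovl7b highest there, at 13.5 CPM.

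The elongases held the largest called fold changes of PCB126 against control, and these were decreases. Transcripts of elovl6l, named for its likeness to elovl6, the elongase of saturated chains (ENSDARG00000038639, chromosome 13, 21666521 to 21672131), fell at every dose. The controls had 16.8, 15.7, 19.6 and 17.4 CPM, and PCB126 gave 9.35, 10.3, 11.2 and 10.8 CPM at 0.08 nM, 10.5, 7.47, 8.23 and 7.02 at 0.4 nM and 7.89, 5.99, 10.1 and 7.90 at 0.8 nM. All 12 exposed libraries lay below all 4 controls. The log2 fold changes were -0.73 ± 0.14, -1.07 ± 0.14 and -1.12 ± 0.14 at the 3 doses (edgeR, adjusted p = 0.0103, 4.91e-05 and 1.05e-05), and -0.73, -1.06 and -1.12 without the pair (SE 0.14 each), and control replicate 4 sat within its group. The 0.08 nM call ended without PCB126 0.08 nM replicate 1 (adjusted p = 0.0573). The slope of -1.18 ± 0.26 per nM (edgeR, adjusted p = 0.0213) lost its call without PCB126 0.8 nM replicate 2 (adjusted p = 0.0834).

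With Cd, elovl6l had 14.1, 17.1, 15.8 and 15.9 CPM at 2.4 ug/L, 15.2, 14.8, 15.6 and 13.9 at 12 ug/L and 12.8, 13.6, 10.3 and 14.0 at 24 ug/L. The Cd 12 and 24 ug/L libraries were all below the controls, but no Cd dose was called in either fit. The Cd slope was called only without the pair (-0.02 per ug/L, edgeR, adjusted p = 0.022).

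The elongase gene elovl7b (ENSDARG00000100185, unplaced scaffold KN150589.1, 3626 to 5397, GRCz11) was low at all 3 PCB126 doses. Controls had 5.94, 7.96, 6.16 and 13.5 CPM, the last in replicate 4, and PCB126 gave 3.95, 3.30, 4.25 and 4.11 CPM at 0.08 nM, 4.29, 3.58, 3.32 and 3.71 at 0.4 nM and 2.19, 3.00, 4.72 and 4.02 at 0.8 nM. No PCB126 library reached the lowest control. The log2 fold changes were -1.09 ± 0.24, -1.16 ± 0.24 and -1.26 ± 0.24 (edgeR, adjusted p = 0.0356, 0.00977 and 0.00212), and without the pair -0.77, -0.84 and -0.93 (SE 0.18 each). The 0.4 and 0.8 nM calls were kept in all 8 omissions but lost with only the groups compared (adjusted p = 0.404 and 0.264). The 0.08 nM call ended without control replicate 2 or 4 or any 1 of the 4 exposed libraries (highest adjusted p = 0.136).

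For Cd, elovl7b had 8.94, 6.95, 11.5 and 6.84 CPM at 2.4 ug/L, 8.17, 6.36, 8.43 and 7.14 at 12 ug/L and 6.69, 6.36, 6.19 and 5.49 at 24 ug/L. These overlapped the controls at every dose, and no Cd dose was called.

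The elongase elovl4b, which makes very long chains in retina and brain (ENSDARG00000027495, chromosome 23, 40410644 to 40438581), was lower at PCB126 0.8 nM. Controls had 47.5, 46.1, 50.2 and 57.1 CPM, and PCB126 gave 47.8, 44.9, 50.2 and 49.8 CPM at 0.08 nM, 43.1, 51.0, 43.1 and 38.6 at 0.4 nM and 39.0, 32.6, 34.7 and 34.6 at 0.8 nM. Only at 0.8 nM were the exposed libraries clear of the controls. The log2 fold change there was -0.51 ± 0.12 (edgeR, adjusted p = 0.012), or -0.44 ± 0.08 without the pair, and the slope was -0.62 ± 0.11 per nM (adjusted p = 0.00442), kept in all 16 omissions. The 0.8 nM call ended without PCB126 0.8 nM replicate 2 (adjusted p = 0.0536). Cd gave 46.4, 49.2, 75.4 and 50.1 CPM at 2.4 ug/L, 49.3, 42.9, 49.7 and 48.2 at 12 ug/L and 45.8, 45, 44.6 and 49.1 at 24 ug/L, with no call.

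Photoreceptor markers, a list added after values were seen, were lower beside elovl4b at PCB126 0.8 nM. Of 18 tested, 7 were called lower and 0 higher (12 and 1 without the pair). Of all genes 1.47% were called lower and 2.02% higher there (3.37% and 5.37% without the pair). The photoreceptor list summed to 6308 to 6895 CPM, against 8446 to 8992 in control replicates 1 to 3 and 15619 in control replicate 4. One matched marker had 0 counts throughout. The part of photoreceptor RNA in the elovl4b result was not tested.

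The elongase genes elovl2 and elovl5, which act on polyunsaturated chains, went the other way across PCB126 doses. The elovl2 transcript averaged 61.9 ± 11.6 CPM at 0.8 nM against 35.4 ± 5.36 CPM at 0.08 nM (SD, n = 4 each), without overlap. That difference was 0.80 ± 0.17 (edgeR, adjusted p = 0.0143), and the call ended without PCB126 0.08 nM replicate 1, 2 or 4 or PCB126 0.8 nM replicate 1 or 4 (highest adjusted p = 0.0895). Against control, elovl2 was called at 0.8 nM without the pair only (0.55 ± 0.13). The slope of elovl5 was 0.73 ± 0.18 per nM (edgeR, adjusted p = 0.0342). It was kept in 6 of 16 omissions and ended without control replicate 3, PCB126 0.08 nM replicate 1 or 3, PCB126 0.4 nM replicate 1, 3 or 4, or any PCB126 0.8 nM library (highest adjusted p = 0.127). The desaturase fads2, the partner of these enzymes, averaged 72.1 ± 12.3 CPM at PCB126 0.8 nM against 44.2 ± 9.15 at 0.08 nM. Its controls had 40.0 ± 10.1 CPM in replicates 1 to 3 and 76.7 in replicate 4. The desaturase was not called with 28 libraries, and without the pair it was called at PCB126 0.8 nM (0.85 ± 0.18) and at Cd 12 ug/L (0.79 ± 0.18).

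Hepatocyte markers moved beside them at PCB126 0.8 nM: 2 of 15 were called higher with 28 libraries and 10 without the pair. Of all genes 2.02% and 5.37% were called higher in these fits. Their summed level was 12116 to 14532 CPM, against 9407 to 10232 CPM in control replicates 1 to 3 and 23168 in control replicate 4. At Cd 12 ug/L, where fads2 was also called without the pair, 0 of these 15 markers were called in either fit. There they summed to 8756 to 9555 CPM. Their part in the elovl2, elovl5 and fads2 values was not tested. Of the remaining elongases, elovl1a was called at Cd 24 ug/L without the pair, at 16.7 ± 0.94 CPM (n = 4) against 10.2 ± 1.29 in control replicates 1 to 3, and an antisense gene there held 5.45% as many counts. The most abundant elongase, elovl1b, and elovl4a, elovl6, elovl7a, elovl8a and elovl8b were not called with 28 libraries.

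The fabp family had 9 tested members, and with 28 libraries fabp7a was called at PCB126 0.8 nM. It averaged 165 ± 22.6 CPM there against 319 ± 182 CPM in controls (SD, n = 4 each), which were 222 to 236 in replicates 1 to 3 and 591 in replicate 4. The log2 fold change of -0.95 ± 0.26 (edgeR, adjusted p = 0.0407) became -0.47 ± 0.07 without the pair (adjusted p = 0.000116), and the exposed range of 150 to 198 CPM stayed below all controls. The call with the larger set ended without control replicate 4 or any PCB126 0.8 nM library (highest adjusted p = 0.288). Radial glia markers were not called in either direction there, 0 of 10 tested (2 higher without the pair, all genes 5.37%). Their summed level was 1809 to 1931 CPM, against 1675 to 1735 in control replicates 1 to 3 and 1824 in control replicate 4. The part of radial glia RNA in the fabp7a result was not tested.

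Without the pair, fabp11a, an adipose-type carrier, and fabp1b.1 were also called lower at PCB126 0.8 nM, with log2 fold changes of -0.46 ± 0.11 and -0.39 ± 0.12. Of 9 enterocyte markers 1 was higher and 1 lower there with 28 libraries (all genes 2.02% and 1.47%), and 2 and 1 without the pair (5.37% and 3.37%). The paralogue fabp1b.2 lies next to fabp1b.1 on chromosome 8. It held 89 counts over all libraries against 99542 for fabp1b.1, so few of the counted reads went to the paralogue. The liver carrier fabp10a was called higher at PCB126 0.08 nM without the pair, at 372 ± 16.6 CPM (n = 4) against 289 ± 16.7 in control replicates 1 to 3. Hepatocyte markers summed to 10666 to 11413 CPM at 0.08 nM, against 9407 to 10232 in control replicates 1 to 3 and 23168 in control replicate 4. Of 15 tested, 0 were called at 0.08 nM with 28 libraries, and 4 were higher and 0 lower without the pair (all genes 7.83%). At PCB126 0.8 nM fabp10a averaged 310 ± 17.4 CPM and was not called. The hepatocyte list summed higher there than in control replicates 1 to 3. Over all 4 controls it averaged 13126 CPM, against 12934 at that dose. The part of hepatocyte RNA in the fabp10a values was not tested. Against PCB126 0.08 nM, 5 of 9 tested fabp genes were lower at 0.8 nM without the pair and none higher (11% of all genes were called in either direction), and with 28 libraries none was called.

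**Figure D4:**
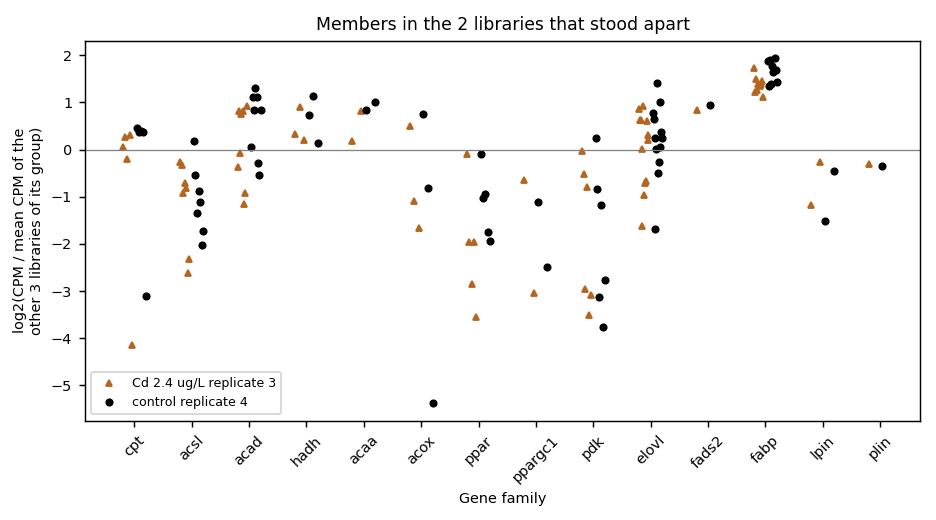
Log2 ratio of CPM in Cd 2.4 ug/L replicate 3 (triangles) and control replicate 4 (circles) to the mean of the other 3 libraries of the same group (vertical axis), for the 66 tested members by family. All 9 fabp genes lie above 0 in both libraries, and most pdk, ppar, ppargc1 and acsl genes lie below.

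The divergent libraries differed from their own groups family by family. All 9 tested fabp genes were above the other 3 libraries of the group in both, with median log2 ratios of 1.38 in Cd 2.4 ug/L replicate 3 and 1.68 in control replicate 4. The pdk genes had medians of -1.88 and -1.97, and the ppargc1 genes -1.85 and -1.79. Across the 66 members the ratios of both libraries ran together (Pearson r = 0.90, Spearman rho = 0.96, a description across genes, which are not independent). Members shorter than 1500 bases were above every other library of their group in 12 of 12 cases in Cd 2.4 ug/L replicate 3 and 11 of 12 in control replicate 4. These short members include the 9 fabp genes. Of 22 members over 3000 bases, 4 were above and 14 below every other library in Cd 2.4 ug/L replicate 3. In control replicate 4 these were 9 and 10.

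Lipid storage genes were few. The lipid droplet coat gene plin6 (ENSDARG00000076844, chromosome 16, 28797703 to 28836529) had 8.86, 9.77, 7.54 and 6.85 CPM in controls. PCB126 gave 11.3, 12.5, 13.2 and 10.3 CPM at 0.08 nM, 9.59, 12.1, 12.3 and 10.6 at 0.4 nM and 15.5, 18.7, 17.4 and 11.8 at 0.8 nM. At 0.8 nM every library was above every control, and the fold change was 0.94 ± 0.15 on the log2 scale, 1.92-fold (edgeR, adjusted p = 0.000423), kept in all 8 omissions but lost with only the groups compared (adjusted p = 0.127). Without the pair it was 0.86 ± 0.15. The slope was 0.89 ± 0.21 per nM (edgeR, adjusted p = 0.0311), and this call ended without control replicate 1 or 3 or PCB126 0.8 nM replicate 1, 2 or 3 (highest adjusted p = 0.128). Cd gave 6.71, 7.70, 6.34 and 9.15 CPM at 2.4 ug/L, 11.4, 10.1, 9.20 and 8.50 at 12 ug/L and 8.58, 10, 8.11 and 8.55 at 24 ug/L, overlapping the controls at every dose.

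The phosphatidate phosphatase lpin1 was not called with 28 libraries. It averaged 116 ± 15.2 CPM at Cd 24 ug/L and 113 ± 10.6 at Cd 12 ug/L, against 75.1 ± 1.52 in control replicates 1 to 3 and 26.2 in control replicate 4. Without the pair it was called at Cd 12 ug/L (0.59 ± 0.12), Cd 24 ug/L (0.63 ± 0.13) and PCB126 0.08 nM (0.45 ± 0.13), and not at PCB126 0.8 nM (0.26 ± 0.12, edgeR, adjusted p = 0.238). Its relative lpin2 was not called in either fit.

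The top doses were compared directly. The group means in this comparison involve no control library, but its SE and adjusted p rest on a spread estimated from all 28 libraries. Cd 24 ug/L against PCB126 0.8 nM gave 2 members higher and 1 lower with 28 libraries (all genes 1.74%). The kinase pdk2b was higher with Cd by 0.89 ± 0.21 (edgeR, adjusted p = 0.017), at 239 ± 44.2 CPM against 129 ± 22.1 CPM with PCB126. The call was lost without Cd 24 ug/L replicate 2 or 4 or PCB126 0.8 nM replicate 3 or 4 (highest adjusted p = 0.0873). The elongase elovl6l was higher with Cd by 0.67 ± 0.14 (adjusted p = 0.00765), at 12.7 ± 1.64 against 7.96 ± 1.66 CPM. The droplet gene plin6 was lower with Cd by 0.85 on the log2 scale (log2 fold change -0.85 ± 0.15, adjusted p = 0.00155), at 8.82 ± 0.84 against 15.9 ± 3.03 CPM. The last 2 calls were kept in all 8 omissions. Without the pair the differences were 0.90 ± 0.20, 0.67 ± 0.14 and -0.85 ± 0.14.

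Without the pair 9 members were higher with Cd 24 ug/L and 4 lower (all genes 6.57%). The elongase elovl7b had a difference of 0.82 ± 0.24 with 28 libraries (edgeR, adjusted p = 0.0927) and 0.83 ± 0.17 with 26 (adjusted p = 0.00309). For cpt1b the top doses differed by 0.12 ± 0.11, which was not called. The 2 chemicals are unrelated in structure and their doses are in different units, so these are differences between the groups as dosed.

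**Figure D5:**
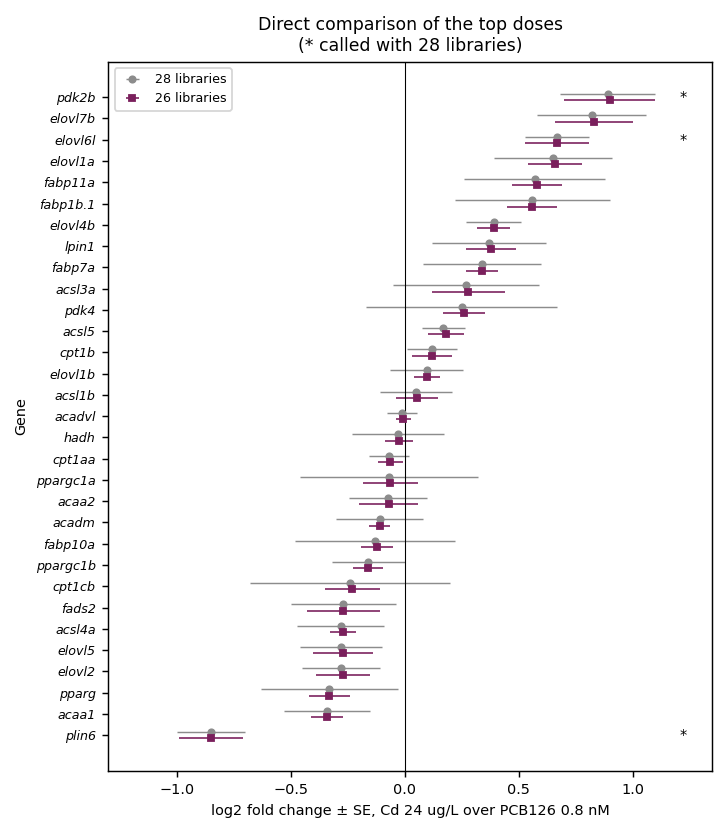
Log2 fold change of Cd 24 ug/L over PCB126 0.8 nM (horizontal axis, ± SE) for 31 named members (rows), with 28 libraries (circles) and with 26 (squares). Stars mark the 3 calls with 28 libraries, pdk2b, elovl6l and plin6.

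Partner genes of the same pathways were counted as a list of 105 names chosen for their roles, of which 98 matched and 93 were tested. At PCB126 0.8 nM 3 were higher and none lower against control, 3.23% of the list where 3.49% of all genes were called. Among them were the malic enzyme gene me1 (34.0 ± 6.38 against 21.7 ± 5.38 CPM, 0.65 ± 0.17) and phyh, an enzyme of peroxisomal alpha-oxidation (0.38 ± 0.06). At PCB126 0.4 nM phyh alone was called (0.32 ± 0.06), 1.08% of the list where 1% of all genes were called. At PCB126 0.08 nM and at Cd 2.4 and 12 ug/L none was called. Against PCB126 0.08 nM, me1 was 1.14 ± 0.18 higher at 0.8 nM. It was the sole partner gene called there, 1.08% of the list where 1.02% of all genes were called. In the comparison of Cd 24 ug/L with PCB126 0.8 nM, the mitochondrial uncoupling protein gene ucp3 was higher (65.9 ± 11.6 against 37.3 ± 8.74 CPM, 0.82 ± 0.19), while oxct1b, a ketone-using enzyme, and phyh were lower, at -0.73 ± 0.16 and -0.26 ± 0.06. These 3 were 3.23% of the list, where 1.74% of all genes were called. Without the pair the list had 12 higher and 0 lower at PCB126 0.8 nM and 9 higher and 0 lower at Cd 24 ug/L, or 12.9% and 9.68% of the list, where 8.73% and 5.08% of all genes were called (5.37% and 3.63% higher). At PCB126 0.08 nM it then had 3 higher and 6 lower (9.68%, all genes 7.83%). At PCB126 0.4 nM these were 4 and 1 (5.38%, all genes 3.57%), and at Cd 12 ug/L 4 and 0 (4.3%, all genes 0.797%).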

How the data were processed

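Polyadenylated RNA was sequenced from whole larvae in 28 libraries, 4 in each of 7 groups taken from the sample labels. Per the submitters' processing notes, HISAT2 2.0.5, featureCounts 1.5.0-p3 and the build GRCz11 were used. The annotation release is not given in the sources used here, and directional and non-directional second strands are both mentioned in the protocols, so strand was treated as unknown. The deposited count table gives raw counts per gene, and 6417 unannotated loci in it held 7.71% of counts. The authors' deposited TPM table holds 27475 genes, 67 of them members. The deposited gene lengths (in bases, per the file headers) served only for the length grouping. Every per-sample column was used.

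Differences in raw counts came from the quasi-likelihood test of edgeR 4.0.16 (R 4.3.3), with TMM factors, filterByExpr on the groups, glmQLFit and glmQLFTest, two-sided, Benjamini-Hochberg adjustment over 25393 genes (24840 and 24992 in the PCB126 and Cd dose trends). All 28 libraries entered 1 model with a mean per group (21 residual degrees of freedom). The trends used the 12 libraries of a chemical and the 4 controls, with slopes linear in dose. Errors of fold changes are SE, and errors of CPM are SD. SE was taken as the size of the log2 fold change over the square root of the F statistic. Intervals cover spread between these libraries only. The scripts were tested on simulated counts. Depth, 11893345 to 20770004 counts per library, limits the precision of genes with low levels.

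Members, gene lists and alternatives were chosen with earlier results of these data known, and the rule named cpt1b, pdk2b and elovl7b, every member called with 28 libraries, members called in at least 2 comparisons without the pair, and the member of each family with the highest mean TPM. Some genes are not reported here. Members beyond the rule were named after their values were seen, as was the photoreceptor list. Alternatives were DESeq2 1.42.0, its size factors in edgeR, no filter, a mean of at least 10 counts, only the groups compared, the replicate number as a block, the omission of the divergent pair and of each library. No sequence is shown because no genome or sequence table was used here.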

Additional observations from a re-analysis of the deposited data

Results flagged for a closer look

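Of 224 sets of 4 libraries (32 members in 7 groups), 32 held a library whose gap to its nearest neighbour was above Dixon's 95% critical value for 4 values; chance alone flags about 1 in 20 sets. Control replicate 4 accounted for 16 and Cd 2.4 ug/L replicate 3 for 12.

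Control replicate 4 was high for fabp10a (1056 CPM), fabp1b.1 (776), fabp7a (591), acadm (360.0), hadh (169), fabp11a (113), elovl1b (81.5), acaa1 (75.0), cpt1aa (52.9) and elovl1a (26.8). It was low for ppargc1b (34.3 CPM), lpin1 (26.2), acsl1b (21.7), acsl4a (15.2), ppargc1a (3.74) and pdk4 (3.56). Cd 2.4 ug/L replicate 3 was high for fabp10a (1098 CPM), fabp1b.1 (685), fabp7a (541), acadm (311), hadh (134), fabp11a (92.0), elovl1b (89.8), elovl4b (75.4), acaa1 (65.3) and cpt1aa (47.8). It was low for pdk4 (4.19 CPM) and pparg (2.04). In these 2 libraries ribosomal protein genes also took more of the counts, as given above, and the part of RNA quality or handling was not tested.

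The other 4 were PCB126 0.08 nM replicate 3 for fabp1b.1 (216 CPM, high) and fabp7a (203, low), PCB126 0.08 nM replicate 1 for lpin1 (115, high) and PCB126 0.4 nM replicate 2 for pdk4 (27.0, low).

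For 3 genes the effect of Cd 24 ug/L differed from that of PCB126 0.8 nM in edgeR's direct test of the difference: pdk2b by 0.89, elovl6l by 0.67 and plin6 by -0.85 on the log2 scale.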

How the results depend on the processing

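None of the 28 calls of single members reversed under any alternative run. DESeq2, DESeq2 size factors, a mean of at least 10 counts and the omission of the divergent pair each kept all 28, no filter kept 24, and a model of only the groups compared kept 6 of 19. The cause of each shift in the counts below was not tested. Without the pair the members called became 11, 8 and 17 at PCB126 0.08, 0.4 and 0.8 nM, 5 and 11 at Cd 12 and 24 ug/L, 21 for PCB126 0.8 against 0.08 nM, 13 for Cd 24 ug/L against PCB126 0.8 nM, 14 for the PCB126 trend and 11 for the Cd trend. DESeq2 gave 3 and 7 at Cd 12 and 24 ug/L, 5 for PCB126 0.8 against 0.08 nM, 5 for Cd 24 ug/L against PCB126 0.8 nM and 4 for the Cd trend. Over all genes DESeq2 called 125, 598, 552, 654 and 512 in the same order. The main edgeR fit called 44, 234, 260, 443 and 86 genes there. Only the groups compared gave 0, 0 and 1 at PCB126 0.08, 0.4 and 0.8 nM, 0 and 1 at Cd 12 and 24 ug/L, 14 for 0.8 against 0.08 nM and 10 for Cd 24 ug/L against PCB126 0.8 nM. All-gene calls moved with them, to 11, 37, 111, 3, 19, 1700 and 1071 in the same order. In the main fit they were 98, 255, 887, 44, 234, 260 and 443. No filter gave 0 at Cd 12 ug/L and 1 for the Cd trend, where 37 and 70 of all genes were called. Leaving out each library in turn gave 0 to 2, 2 to 2 and 5 to 11 members at PCB126 0.08, 0.4 and 0.8 nM, 0 to 0, 0 to 1 and 1 to 3 at Cd 2.4, 12 and 24 ug/L, 0 to 1 for 0.8 against 0.08 nM, 2 to 3 for Cd 24 ug/L against PCB126 0.8 nM, 1 to 14 for the PCB126 trend (14 without control replicate 4, 1 without PCB126 0.8 nM replicate 2, and 3 to 4 without control replicate 3 or PCB126 0.8 nM replicate 1, 3 or 4) and 0 to 2 for the Cd trend. At PCB126 0.8 nM the 5 came without PCB126 0.8 nM replicate 2, where 544 of all genes were called, against 887 with all 28 libraries. For the PCB126 trend, all-gene calls were 1577 without control replicate 4 and 316 without PCB126 0.8 nM replicate 2, against 563. Among the 7 genes given per library, elovl7b and plin6 had the lowest levels, with means of 5.97 and 10.5 CPM.

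The replicate numbers showed no clear pairing of the libraries. Same-numbered libraries of other groups correlated from -0.65 to 0.59 (median -0.01), and differently numbered ones from -0.72 to 0.85 (median 0.003). Correlations over 0.1 were 17 of 84 and 37 of 252. Of 28 libraries, 8 correlated best with their own number. A replicate block kept 22 of the 28 calls and gave 1 member at PCB126 0.08 nM, 0 at Cd 12 ug/L and 0 for the Cd trend. Over all genes it called 82, 40 and 30 there, against 98, 44 and 86 in the main fit.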
